A study of Mus musculus with 12 samples.

Results

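The genes described here are 10 Kruppel-like factors, Klf2, Klf3, Klf4, Klf5, Klf6, Klf7, Klf9, Klf10, Klf13 and Klf15, measured in mouse uterine epithelial and stromal cells with and without estradiol. They were taken by gene symbol. Each had 1 probe set with that single symbol, so they are 10 of the 23410 probe sets tested and 10 of the 17 KLF genes on the array. Cells of CD-1 uteri from day 4 of pseudopregnancy were grown as a primary co-culture, with stromal cells on cover slips in the wells and sheets of epithelium on inserts coated with matrigel, and kept overnight without hormones. The cultures then received estradiol (E2) at 10 nM or vehicle (0.01% ethanol) for 2 days, and the layers were harvested separately. The 4 groups of 3 arrays were E2-treated epithelial, vehicle epithelial, E2-treated stromal and vehicle stromal. Values are on the log2 scale and came from the Affymetrix Mouse Gene 1.0 ST array after RMA, a method that summarizes the probes of a gene into 1 value per array. Whether a group's 3 arrays stand for separate cultures or animals is not in the labels, so the spread behind each p-value may be technical.

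Kruppel-like factors are transcription factors with zinc fingers at the carboxyl end that bind GC-rich elements, the GC box and the CACCC box, in promoters. The family holds activators and repressors that compete for the same elements, and many members move cells between proliferation and differentiation. In the mouse uterus, KLF9 is known as a partner of the progesterone receptor, KLF5 is needed in the epithelium for implantation, and KLF15 restrains DNA replication in the epithelium.

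The layers were checked against markers of cell types. The mean of 14 epithelial marker genes was 9.76, 9.96 and 10.02 in E2 epithelial arrays and 11.00, 11.57 and 9.89 in vehicle epithelial arrays, against 6.98 to 7.11 in E2 stromal and 6.62 to 6.88 in vehicle stromal arrays. The epithelial label held in all 6 arrays, yet vehicle replicate 3 lay among the E2 arrays on this measure. Stromal markers were bright in both layers, with means of 15 genes between 10.34 and 10.43 in E2 epithelial, 9.69 and 10.45 in vehicle epithelial, 10.54 and 10.72 in E2 stromal and 10.62 and 10.80 in vehicle stromal arrays. The epithelial arrays therefore also held RNA of stromal marker genes. Other cell types differed between the layers too. The mean of 5 mesothelial markers was 9.45 to 9.84 in E2 epithelial and 9.75 to 10.44 in vehicle epithelial arrays, highest in vehicle replicate 3, against 7.25 to 7.36 in E2 stromal and 7.17 to 7.38 in vehicle stromal arrays. Fewer cells of a type and less RNA per cell cannot be told apart in such arrays. The median spread between arrays was larger in epithelium (SD 0.158 with E2 and 0.185 with vehicle) than in stroma (0.0804 and 0.0946). The main fit shared 1 spread per probe set over the 4 groups, so its standard errors and intervals are not those of a single layer. Where a gene varied more in epithelium, sharing can widen the errors given for stroma and narrow those for epithelium. Replicates 1 and 2 of E2-treated epithelium stood close together for Klf6, Klf7, Klf9 and Klf13, and replicate 3 was lower in each.

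Promoter sequences are shown for 4 members that changed with E2 or differed between the layers, to set the elements that the family binds beside the measurements. Each runs from 250 bases before to 50 bases after the RefSeq transcription start in GRCm38.p6, 5′ to 3′ along the gene. The stretches are chr19:23140976-23141275 on the plus strand for Klf9, chr4:55532426-55532725 on the minus strand for Klf4, chr7:63938866-63939165 on the minus strand for Klf13 and chr1:64121340-64121639 on the minus strand for Klf7. Capitals mark each GC box (GGGCGG) and each CACCC box (CCACCC), on either strand and with overlaps allowed.
Klf9: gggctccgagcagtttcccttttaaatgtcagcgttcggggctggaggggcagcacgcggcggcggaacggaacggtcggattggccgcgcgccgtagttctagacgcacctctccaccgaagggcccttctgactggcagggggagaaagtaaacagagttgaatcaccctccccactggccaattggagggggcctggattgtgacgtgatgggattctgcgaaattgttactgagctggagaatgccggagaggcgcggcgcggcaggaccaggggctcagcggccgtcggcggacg
Klf4: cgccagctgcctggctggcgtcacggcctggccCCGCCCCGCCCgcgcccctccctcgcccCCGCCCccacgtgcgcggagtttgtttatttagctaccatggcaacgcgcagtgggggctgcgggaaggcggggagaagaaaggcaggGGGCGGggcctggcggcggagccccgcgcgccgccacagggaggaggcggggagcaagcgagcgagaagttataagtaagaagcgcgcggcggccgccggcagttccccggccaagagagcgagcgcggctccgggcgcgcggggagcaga
Klf13: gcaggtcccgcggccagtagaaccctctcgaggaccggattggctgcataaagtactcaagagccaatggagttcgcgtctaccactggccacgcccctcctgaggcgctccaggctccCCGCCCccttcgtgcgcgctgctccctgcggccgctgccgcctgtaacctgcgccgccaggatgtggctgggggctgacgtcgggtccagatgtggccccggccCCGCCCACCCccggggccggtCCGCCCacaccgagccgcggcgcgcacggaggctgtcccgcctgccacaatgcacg
Klf7: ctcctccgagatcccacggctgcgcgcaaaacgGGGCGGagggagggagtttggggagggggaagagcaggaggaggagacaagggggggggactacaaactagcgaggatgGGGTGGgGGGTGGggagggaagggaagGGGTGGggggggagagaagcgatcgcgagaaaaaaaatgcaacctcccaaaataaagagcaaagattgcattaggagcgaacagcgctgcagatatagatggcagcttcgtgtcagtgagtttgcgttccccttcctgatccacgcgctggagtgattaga
By these letters the Klf9 window had 0 GC boxes and 0 CACCC boxes, while Klf4 had 4 GC boxes, Klf13 had 3 GC boxes and 1 CACCC box, and Klf7 had 1 GC box and 3 CACCC boxes. The shorter run CACCC does occur in the Klf9 window, after a T rather than a C, and was not counted. Of the 8 members with a RefSeq promoter in the table used here, all but Klf5 and Klf10, the GC box was in 7 (87.5%), against 35.7% of 32851 promoters of the same length. The CACCC box was in 4 of the 8 (50%), against 31.5% of all promoters. GGTCA, one arm of the estrogen response element, was on either strand in 2 of the 8, Klf3 and Klf6, against 40.5% of all promoters. The full element, GGTCA followed after 3 bases by its reverse complement, was in 0 of the 8 and in 0.07% of all. A match describes the letters of this window and is not evidence of binding.

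**Figure D1:**
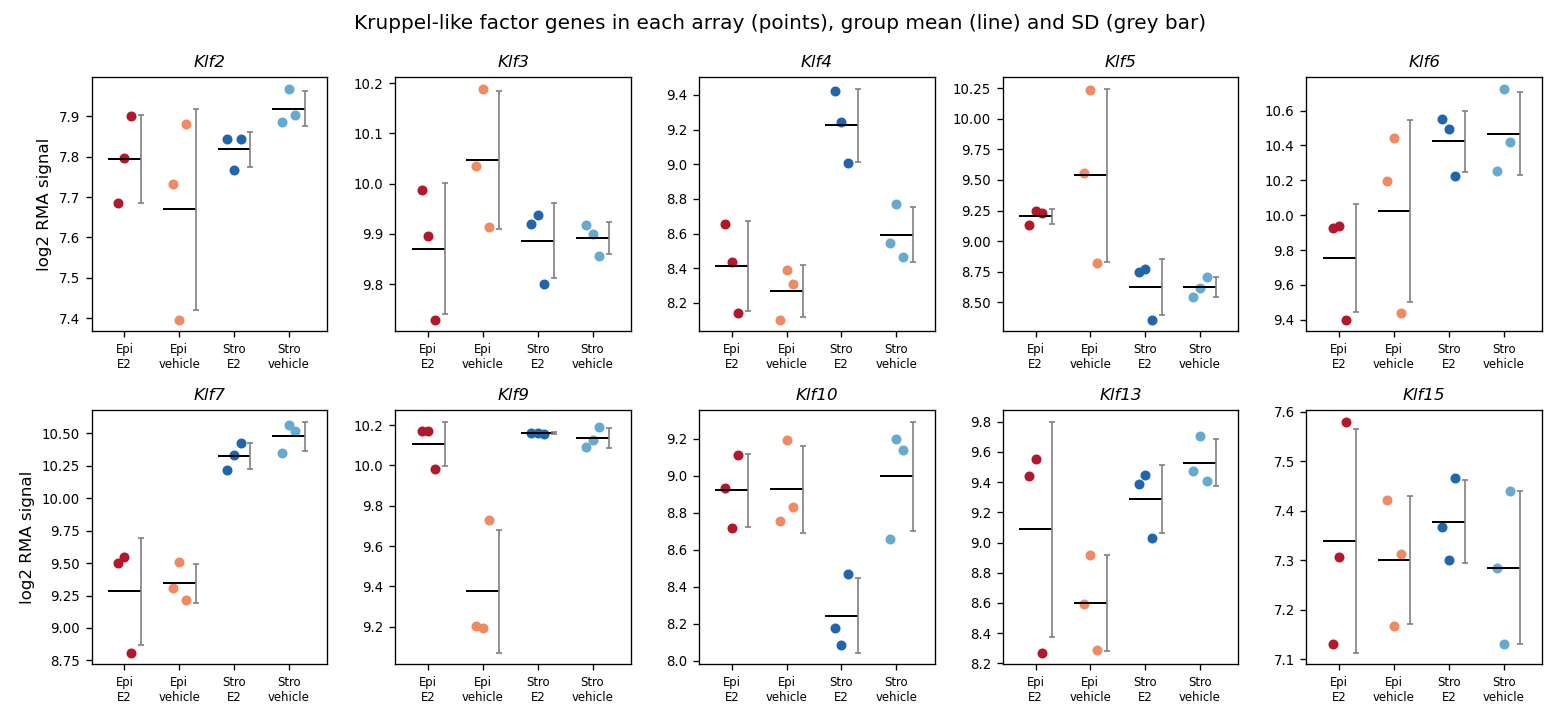
Log2 RMA signal (vertical axis, own scale in each panel) of the 10 Kruppel-like factor genes in E2 epithelial, vehicle epithelial, E2 stromal and vehicle stromal arrays. Points are arrays, black lines group means and grey bars 1 SD with n = 3. Klf9 is high in all groups but vehicle epithelium, Klf4 is highest in E2 stroma, Klf10 is lowest in E2 stroma, and Klf7 is about 1 log2 unit higher in stroma than in epithelium.

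In E2-treated against vehicle epithelium, Klf9 was the only one of the 10 genes to pass. Klf9, the progesterone receptor partner, measured 10.17, 10.17 and 9.98 in the E2 epithelial arrays, against 9.20, 9.20 and 9.73 in the vehicle epithelial arrays. All 3 E2 arrays stood above all 3 vehicle arrays, vehicle replicate 3 being the nearest. Klf9 rose 1.66-fold, a log2 difference of 0.73 ± 0.13 (standard error, n = 3 arrays per group, limma with Benjamini-Hochberg adjustment over 23410 probe sets, adjusted p = 0.0133). The share of probe sets called higher in this comparison was 1.77%, against 1.12% lower and 2.90% in all. With 10 genes, 1 call is too few to set the members apart from these shares. The groups of Klf9 did not overlap, as was so for 15.0% of probe sets.

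Markers of the layer moved beside Klf9. Vehicle replicate 3, with the lowest epithelial marker mean of its group (9.89), had the highest Klf9 of that group. Of the 14 epithelial markers 13 measured lower with E2, 2 of them passing, with a median log2 difference of -0.81 against 0.03 over all probe sets. Of the 15 stromal markers 10 measured higher with E2 in epithelium and 1 passed, and of the 11 leukocyte markers 10 measured higher and 1 passed. The stromal marker mean was 10.426, 10.395 and 10.341 in E2 epithelial arrays and 9.875, 9.689 and 10.445 in vehicle epithelial arrays. Vehicle replicate 3 was thus the highest epithelial array on this measure, as it was the highest vehicle array for Klf9. The part of the stromal marker mean in the Klf9 difference was not tested. With the epithelial marker mean as a covariate, an alternative added after seeing the data, Klf9 differed by 0.42 (adjusted p = 0.135), and with the leukocyte marker mean by 0.59 (adjusted p = 0.165). The call was also lost without E2 replicate 1 (0.70, adjusted p = 0.0696), without E2 replicate 2 (0.70, adjusted p = 0.0704) and on the 6 epithelial arrays alone (adjusted p = 0.203).

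The other 9 members did not pass in epithelium, 4 measuring higher and 5 lower. Klf13, which activates the chemokine gene Ccl5 in lymphocytes, measured 9.44, 9.56 and 8.27 in E2 epithelial arrays and 8.59, 8.92 and 8.29 in vehicle epithelial arrays. E2 replicate 3 lay below the lowest vehicle array and the other E2 arrays above the highest, a log2 difference of 0.49 ± 0.29 (adjusted p = 0.469). Without E2 replicate 3 it was 0.90 (adjusted p = 0.0189). The leukocyte marker mean followed the same arrays, at 9.58, 9.73 and 8.81 with E2 and 8.99, 8.58 and 8.96 with vehicle, and with that mean as a covariate the Klf13 difference was 0.0037 (adjusted p = 0.997).

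Klf5, a growth-promoting factor of epithelia, measured 9.13, 9.25 and 9.23 in E2 epithelial arrays, against 9.56, 10.23 and 8.82 in vehicle epithelial arrays. The vehicle arrays spread over the whole range of the E2 arrays and beyond, in the order of their epithelial marker means (11.00, 11.57 and 9.89). The difference was -0.34 ± 0.27 (adjusted p = 0.634). Leaving out vehicle replicate 3 gave -0.69 (adjusted p = 0.0499), and leaving out vehicle replicate 2 gave 0.012. Whether cell makeup accounts for the spread of Klf5, Klf9 and Klf13 was not tested beyond these values.

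**Figure D2:**
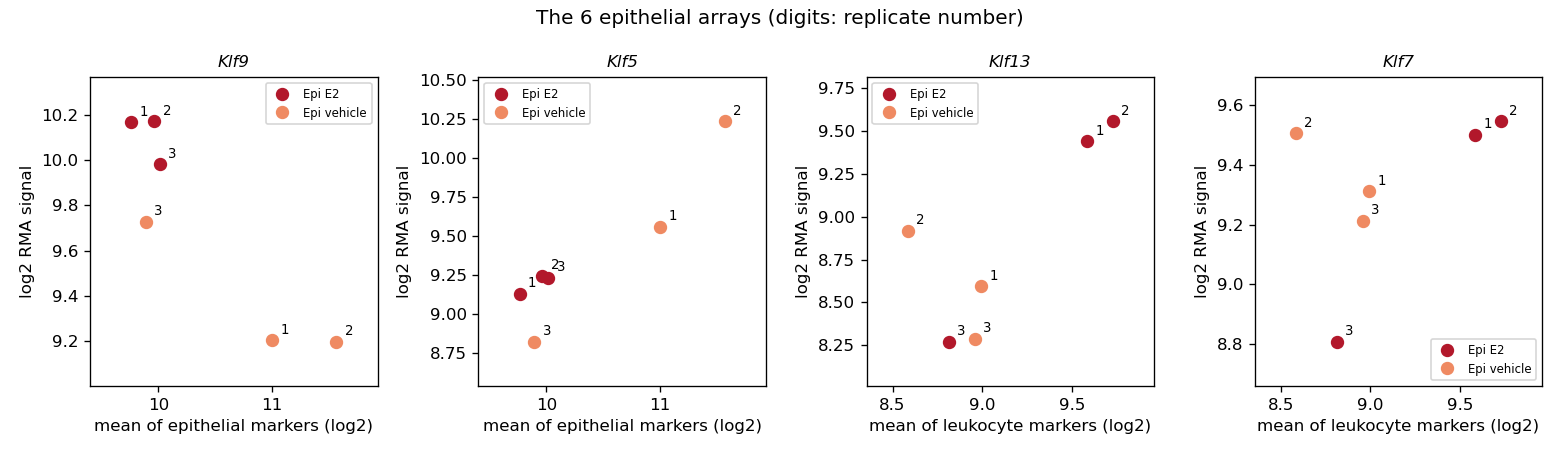
Log2 signal of Klf9 and Klf5 against the mean of 14 epithelial markers, and of Klf13 and Klf7 against the mean of 11 leukocyte markers, in the 6 epithelial arrays (dark red for E2, orange for vehicle, digits for the replicate number). These pairs were chosen after their values were seen. Vehicle replicates 1 and 2 stand apart with high epithelial markers and low Klf9, and E2 replicate 3 has lower leukocyte markers, Klf13 and Klf7 than E2 replicates 1 and 2.

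Klf4, a factor of epithelial differentiation, measured 8.66, 8.44 and 8.14 in E2 epithelial and 8.10, 8.39 and 8.31 in vehicle epithelial arrays, and the groups overlapped (0.14 ± 0.15, adjusted p = 0.751). Klf15, the restrainer of replication in uterine epithelium and a regulator of amino acid and glucose metabolism, measured 7.13, 7.31 and 7.58 in E2 epithelial and 7.42, 7.17 and 7.31 in vehicle epithelial arrays. Its difference was 0.04 with a 95% interval from -0.24 to 0.31. Klf15 was the dimmest member, with a mean over the 12 arrays of 7.33 at percentile 48.3 of all probe sets, so a low level on this array limits what its values can show. Klf2 (0.12), Klf3 (-0.18), Klf6 (-0.27), Klf7 (-0.06) and Klf10 (-0.0044) also did not pass in epithelium.

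In E2-treated against vehicle stroma, Klf4 rose and Klf10 fell. Klf4 measured 9.42, 9.25 and 9.01 in the E2 stromal arrays, against 8.55, 8.77 and 8.46 in the vehicle stromal arrays. The groups were apart, the lowest E2 array lying above the highest vehicle array, and Klf4 rose 1.55-fold (0.63 ± 0.15, adjusted p = 0.0445). Klf10, an early target gene of TGF-beta that dampens cell growth, measured 8.18, 8.08 and 8.47 in E2 stromal arrays, against 8.66, 9.20 and 9.14 in vehicle stromal arrays. Klf10 fell 1.69-fold (-0.75 ± 0.17, adjusted p = 0.0364), again with no overlap. Groups did not overlap in 3 of 10 members in stroma, against 30.5% of probe sets. Across the array 1.52% of probe sets were called higher and 1.98% lower in stroma, 3.50% in all, against 2 of 10 members.

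Both stromal calls lay near the threshold. The Klf4 call was lost in 8 of the 12 fits that left out an array, namely without vehicle stromal replicate 1, 2 or 3, E2 stromal replicate 1 or 2, vehicle epithelial replicate 1 or 3, or E2 epithelial replicate 2, with log2 differences from 0.53 to 0.72 and adjusted p from 0.0505 to 0.207. The Klf10 call was lost in 5, namely without vehicle stromal replicate 2 or 3, E2 stromal replicate 1 or 2, or E2 epithelial replicate 1, with differences from -0.75 to -0.65 and adjusted p from 0.0589 to 0.171. Leukocyte markers measured lower with E2 in stroma in 9 of 11 genes, 0 of which passed by limma, and their mean per array was 9.29 to 9.57 with E2 and 9.65 to 9.90 with vehicle. With that mean as a covariate Klf4 differed by 0.71 (adjusted p = 0.0424) and Klf10 by -0.92 (adjusted p = 0.0112). Smooth muscle markers moved the other way, with a mean of 8 genes from 11.68 to 11.75 in E2 stromal and 11.41 to 11.53 in vehicle stromal arrays, 2 of the 8 rising, and their part in the Klf4 and Klf10 changes was not tested. The epithelial marker mean was also higher with E2 in stroma and did not overlap, at 6.98 to 7.11 against 6.62 to 6.88 with vehicle. Of its 14 genes 12 measured higher, and the keratin gene Krt7 rose (1.32 ± 0.28, adjusted p = 0.0240). With the epithelial marker mean as a covariate the Klf4 difference was again 0.63, but its call was lost (adjusted p = 0.0555, against 0.0445 without the covariate). Klf10 kept its call (-0.79, adjusted p = 0.0351).

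**Figure D3:**
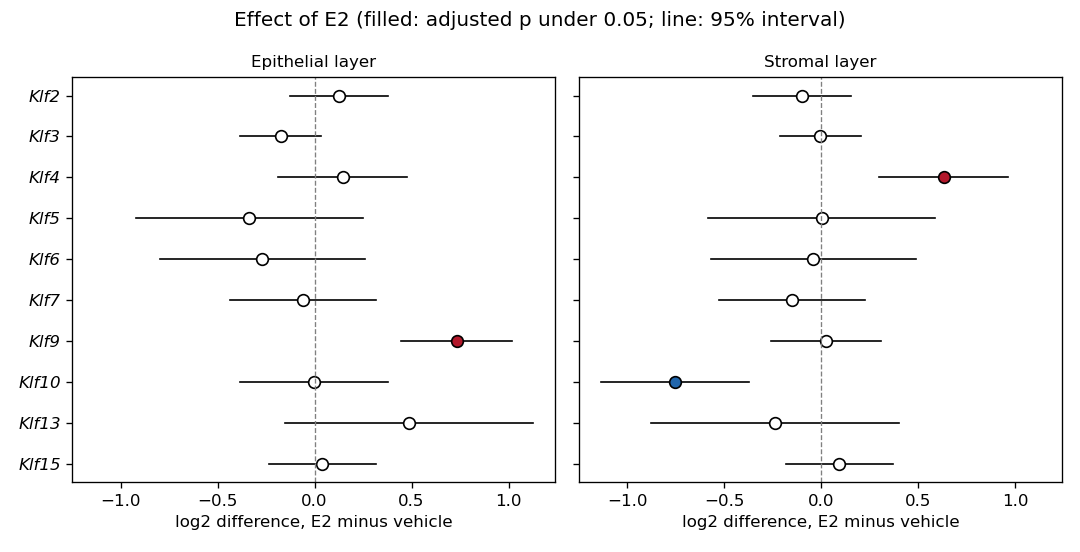
Log2 difference of E2 minus vehicle for each of the 10 genes in the epithelial layer (left) and the stromal layer (right), with 95% intervals from limma over 12 arrays. Filled points passed at an adjusted p under 0.05, red for higher and blue for lower. Klf9 alone is filled in epithelium, and Klf4 and Klf10 are filled in stroma.

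The remaining 8 members did not pass in stroma. Klf9 measured 10.16, 10.16 and 10.16 in E2 stromal arrays and 10.09, 10.13 and 10.19 in vehicle stromal arrays, within the same narrow band (0.02 ± 0.13, with a 95% interval from -0.26 to 0.31). That error comes from the shared spread. The SD of Klf9 was 0.0039 in E2 and 0.0493 in vehicle stroma, against 0.109 in E2 and 0.305 in vehicle epithelium. Klf2, a factor of quiescent endothelium and lymphocytes, measured 7.84, 7.77 and 7.84 with E2 against 7.89, 7.97 and 7.90 with vehicle. The Klf2 groups did not overlap, as was so for 30.5% of probe sets in stroma, but the difference of -0.10 ± 0.12 did not pass (adjusted p = 0.886). Its SD was 0.043 in E2 and 0.044 in vehicle stroma, against 0.108 in E2 and 0.249 in vehicle epithelium, which also enter this error. Klf3, a repressor that works through the CtBP proteins, differed by -0.0048, Klf5 by 0.0021, Klf6, an injury-induced factor, by -0.04, Klf7, known from neuronal development, by -0.15, Klf13 by -0.24 and Klf15 by 0.09, all with overlapping groups.

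A test of the difference between the layers asked whether E2 acted unequally on a member. None of the 10 passed by limma, against 0.910% of probe sets, and 3 had an unadjusted p under 0.05. The epithelial minus the stromal E2 effect was 0.71 ± 0.18 for Klf9 (adjusted p = 0.122) and -0.49 ± 0.21 for Klf4 (adjusted p = 0.446). For Klf10 it was 0.75 ± 0.25 (adjusted p = 0.245), from a difference of -0.75 in stroma beside -0.0044 in epithelium. The changes of Klf9, Klf4 and Klf10 are therefore not shown to differ between the layers in the fit of all arrays with equal weight. With array weights Klf9 (adjusted p = 0.00145), Klf10 (adjusted p = 0.0237) and Klf13 (adjusted p = 0.00431) passed, as did Klf9 without vehicle epithelial replicate 3 (0.88, adjusted p = 0.00444) and Klf13 without E2 epithelial replicate 3 (1.14, adjusted p = 0.0377).

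Between the layers the largest differences were in Klf7, which was lower in epithelium under both treatments. Klf7 measured 9.50, 9.55 and 8.81 in E2 epithelial arrays, against 10.22, 10.34 and 10.42 in E2 stromal arrays, and was 2.06-fold lower in epithelium (-1.04 ± 0.17, adjusted p = 0.00202). With vehicle it measured 9.31, 9.51 and 9.21 in epithelial arrays, against 10.35, 10.57 and 10.52 in stromal arrays, 2.20-fold lower (-1.14 ± 0.17, adjusted p = 0.000888). The layers did not overlap under either treatment, and both calls passed in each of the 23 alternative fits. Beside the layer differences of the members, 4 of 5 mesothelial markers were higher in epithelium under E2 and 4 of 5 under vehicle. Smooth muscle markers were lower in 8 of 8 under E2 and 7 of 8 under vehicle. Of 11 leukocyte markers, 2 were lower and 1 higher under E2, and 6 were lower and 1 higher under vehicle. Of all probe sets 9.18% were lower and 4.43% higher under E2, and 14.1% lower and 7.27% higher under vehicle. The part of these cell types in the differences of Klf7, Klf9, Klf13, Klf4, Klf5 and Klf10 was not tested.

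Under vehicle 3 members were lower in epithelium and 1 was higher, 4 of 10 against 21.4% of all probe sets (14.1% lower and 7.27% higher). Klf9 was 1.69-fold lower in vehicle epithelium than in vehicle stroma (-0.76 ± 0.13, adjusted p = 0.00179), and Klf13 1.91-fold lower (-0.93 ± 0.29, adjusted p = 0.0415). Klf13 measured 9.47, 9.71 and 9.41 in the vehicle stromal arrays, all above the vehicle epithelial arrays given above, but its call was lost in 8 of the 12 fits without an array, namely without any vehicle or E2 stromal array or vehicle epithelial replicate 1 or 3 (adjusted p from 0.0508 to 0.135). It was also lost over all probe sets of the table (adjusted p = 0.0578) and after quantile normalization (-0.78, adjusted p = 0.0586). Klf5 was the one higher in epithelium, 1.89-fold over the vehicle stromal arrays at 8.55, 8.62 and 8.71 (0.91 ± 0.27, adjusted p = 0.0301). The Klf5 difference was 1.27 without vehicle epithelial replicate 3 and 0.57 without vehicle epithelial replicate 2, and the call was lost without vehicle epithelial replicate 1 (adjusted p = 0.0787) or any vehicle stromal array (adjusted p from 0.0657 to 0.0875), and on the vehicle arrays alone (adjusted p = 0.107). Groups did not overlap in 6 of 10 members, against 36.0% of probe sets, the other 2 being Klf2 (-0.25 ± 0.12) and Klf4 (-0.33 ± 0.15), which did not pass.

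Under E2, 2 members were lower in epithelium and 1 was higher, 3 of 10 against 13.6% of all probe sets (9.18% lower and 4.43% higher). Klf4 was 1.76-fold lower in E2 epithelium than in E2 stroma (-0.81 ± 0.15, adjusted p = 0.00408) and Klf10 1.60-fold higher (0.68 ± 0.17, adjusted p = 0.0235). The Klf10 call was lost without E2 epithelial replicate 1 or 3 or E2 stromal replicate 1 or 2 (adjusted p from 0.0563 to 0.103), while the Klf4 call passed in each of the 23 alternative fits. Klf9 overlapped between the layers under E2 and did not pass (-0.05, 95% interval from -0.34 to 0.23), and Klf13 did not pass (-0.20 ± 0.29). Klf6 measured 9.93, 9.94 and 9.40 in E2 epithelial arrays against 10.55, 10.50 and 10.23 in E2 stromal arrays, with no overlap but no call (-0.67 ± 0.24, adjusted p = 0.0966). Klf5 was 0.58 ± 0.27 higher in E2 epithelium, also with no overlap and no call (adjusted p = 0.190). Groups did not overlap in 5 of 10 members under E2, against 38.9% of probe sets.

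**Figure D4:**
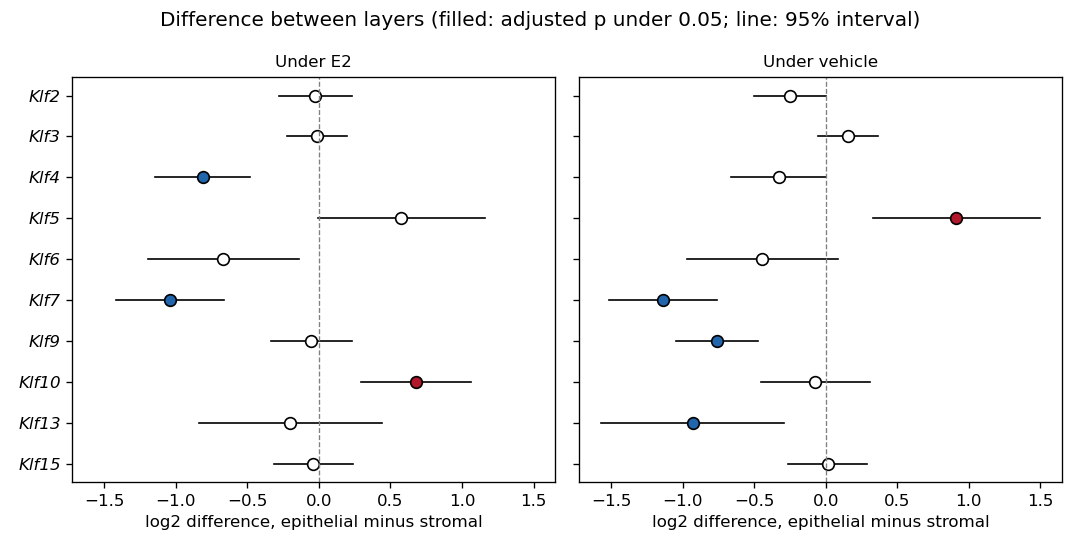
Log2 difference of the epithelial minus the stromal layer for each of the 10 genes under E2 (left) and vehicle (right), with 95% intervals from limma over 12 arrays. Filled points passed at an adjusted p under 0.05, red for higher and blue for lower in epithelium. Klf7 is filled on both sides, Klf9, Klf13 and Klf5 under vehicle, and Klf4 and Klf10 under E2.

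Ordered by level, the 4 groups of a member rarely stood clear of each other. Klf9 had the order E2 stroma, vehicle stroma, E2 epithelium, vehicle epithelium, and only the last step, of 0.73, was free of overlap. Klf4 had E2 stroma on top, 0.63 above vehicle stroma, followed by E2 and vehicle epithelium in an overlapping run. Klf10 had E2 stroma at the bottom, 0.68 below E2 epithelium, and the 3 groups above it overlapped. Klf7 and Klf5 each split once, by layer, the step being 0.98 and 0.58. Klf3, Klf6, Klf13 and Klf15 had no neighbouring groups apart, and Klf2 had 1 such step, of 0.10, between vehicle and E2 stroma.

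For the 3 members that changed with E2, the genes of the most similar pattern were found by Pearson's r over the 12 arrays among 17159 named genes, as a description in which all genes share arrays, layers and treatments. Klf9 was closest to Prrx1, a mesenchymal homeobox gene (r = 0.975), Bnip3l, a mitophagy receptor (0.974), and Nynrin (0.972). Within the 6 epithelial arrays these were 0.985, 0.978 and 0.977, and within the 6 stromal arrays, where Klf9 hardly varied, 0.642, -0.168 and -0.018. Klf4 was closest to the small heat shock gene Hspb6 (0.959), Prex2 (0.956) and Uck1 (0.955). Klf10 had less similar neighbours, Prmt6, Casp2 and Qtrt2 (0.874, 0.874 and 0.850).

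The rest of the family was read from lists of related genes. Over all probe sets, 2.90% were called with E2 in epithelium and 3.50% in stroma. An unadjusted p under 0.05 by limma was reached by at least 3770 of the 23410 probe sets in epithelium and at least 2903 in stroma. Of the 7 other KLF genes 0 passed in epithelium by limma, with 0 at an unadjusted p under 0.05, and 1 fell in stroma. Klf12, a repressor of the AP-2alpha gene, measured 6.21, 6.51 and 6.37 in E2 stromal arrays, against 7.50, 7.57 and 7.21 in vehicle stromal arrays. Klf12 fell 2.09-fold (-1.06 ± 0.13, adjusted p = 0.000883) to the level of the epithelial arrays, which lay between 6.30 and 6.67 with E2 and 6.26 and 6.40 with vehicle. The E2 effect on Klf12 differed between the layers (1.23 ± 0.18, adjusted p = 0.0108). All its values but 2 lay below the array medians of 7.38 to 7.43, and whether they lay above background was not tested. Klf8, a repressor of the same subgroup, was lower in epithelium under E2 (-0.51 ± 0.12, adjusted p = 0.0179) and vehicle (-0.62 ± 0.12, adjusted p = 0.00439).

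Among 8 measured SP genes, the closest relatives of the KLF family, Sp3 rose in epithelium and 0 passed in stroma by limma, with 1 at an unadjusted p under 0.05. The shares called over all probe sets were 2.90% in epithelium and 3.50% in stroma. Sp3 measured 10.49, 10.48 and 10.31 in E2 epithelial arrays, against 9.58, 9.58 and 9.97 in vehicle epithelial arrays, a rise of 0.72 ± 0.12 (1.64-fold, adjusted p = 0.0107). Like Klf9 it was lower in vehicle epithelium than in vehicle stroma (-0.71 ± 0.12, adjusted p = 0.00184), and its call was lost without E2 epithelial replicate 1 (adjusted p = 0.0588) or 2 (adjusted p = 0.0586) and with the epithelial marker mean as a covariate (0.49, adjusted p = 0.159). Vehicle replicate 3 was again the highest of its group.

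Of 14 cofactors and ubiquitin ligases of KLF proteins, 0 passed in epithelium by limma, with 2 at an unadjusted p under 0.05, and 1 rose in stroma. Over all probe sets 2.90% passed in epithelium and 3.50% in stroma, 1.52% upward. Wwp1, a ligase that ubiquitinates KLF2 and KLF5, measured 10.39, 10.49 and 10.53 in E2 stromal arrays, against 9.69, 9.84 and 9.78 in vehicle stromal arrays (1.62-fold, 0.70 ± 0.16, adjusted p = 0.0354). The groups were clearly apart, but the call was lost without any 1 of the 6 stromal arrays (adjusted p from 0.0776 to 0.143) or without vehicle epithelial replicate 1 (adjusted p = 0.0531). Of 6 genes of the ERK5 and MEF2 pathway, which drives Klf2 and Klf4 in endothelium, 0 passed with E2 in epithelium and 0 in stroma by limma, with 1 and 0 at an unadjusted p under 0.05. Between layers 4 of the 6 were lower in vehicle epithelium and 2 in E2 epithelium, against 14.1% and 9.18% of all probe sets, among them Mef2a (-1.07 ± 0.20 under E2 and -1.53 ± 0.20 under vehicle).

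Glucocorticoid-responsive genes were read because Klf9, Klf13 and Klf15 are known targets of the glucocorticoid receptor in other tissues. Of 7 genes, Sgk1 rose in epithelium (0.76 ± 0.17, adjusted p = 0.0362) and Fkbp5 fell in stroma (-0.81 ± 0.15, adjusted p = 0.0133), and the others did not pass. Calls were made for 2.90% of all probe sets in epithelium and 3.50% in stroma. The Sgk1 call was lost in 9 of the 12 fits that left out an array, all but those without vehicle epithelial replicate 1 or 3 or E2 epithelial replicate 3, with adjusted p up to 0.158. The Fkbp5 call was lost without E2 stromal replicate 1 (adjusted p = 0.0577) or 2 (adjusted p = 0.0612).

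Genes described as targets of KLF proteins changed in both directions. Of 15 measured, 3 rose and 1 fell in stroma, where 1.52% of all probe sets were called higher and 1.98% lower. The median difference was 0.04, against 0.03 over all probe sets. Thbd, the thrombomodulin gene that KLF2 and KLF4 activate in endothelium, measured 11.39, 11.47 and 11.33 in E2 stromal arrays, against 9.77, 9.42 and 9.92 in vehicle stromal arrays. It rose 3.24-fold (1.69 ± 0.21, adjusted p = 0.00120), and the E2 and vehicle arrays were far apart. S1pr1, the sphingosine phosphate receptor that KLF2 activates in lymphocytes, measured 10.77, 10.67 and 10.87 in E2 stromal arrays, against 8.55, 9.41 and 8.87 in vehicle stromal arrays (3.55-fold, 1.83 ± 0.22, adjusted p = 0.000958). Eng, the endoglin gene that KLF6 activates in endothelium, rose by 0.77 ± 0.17 (adjusted p = 0.0274), a call lost without any 1 of the 6 stromal arrays (adjusted p from 0.0764 to 0.108). Tgfbr1, the TGF-beta receptor gene that KLF6 is described to activate, fell in stroma by 0.86 ± 0.09 (adjusted p = 0.000412). Neither Thbd, S1pr1 nor Tgfbr1 lost its call in stroma in any of the 25 alternatives.

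In epithelium 1 of these 15 rose and 3 fell, where 1.77% of all probe sets were called higher and 1.12% lower. The median difference was -0.23, against 0.03 over all probe sets. S1pr1 measured 9.14, 8.98 and 8.37 with E2, against 7.55, 7.33 and 7.49 with vehicle (1.37 ± 0.22, adjusted p = 0.00776), so it rose in both layers. With the epithelial or the leukocyte marker mean as a covariate the epithelial S1pr1 call was lost (1.22, adjusted p = 0.105, and 1.12, adjusted p = 0.116). Tgfbr1 measured 9.17, 9.21 and 9.10 with E2, against 10.04, 10.28 and 9.97 with vehicle (-0.94 ± 0.09, adjusted p = 0.000460), so it fell in both. Ccnd1, the cyclin D1 gene that KLF5 activates, fell by 1.66 ± 0.33 (adjusted p = 0.0214) and Plau, the urokinase gene, by 0.94 ± 0.21 (adjusted p = 0.0375). Ccnd1 followed the epithelial markers in the vehicle arrays, at 10.10, 10.46 and 8.77, and its call was lost without vehicle epithelial replicate 1 (adjusted p = 0.0758), E2 epithelial replicate 1 (adjusted p = 0.0963) or E2 epithelial replicate 2 (adjusted p = 0.0895). The Plau call was lost in 11 of the 12 fits that left out an array, all but the one without vehicle epithelial replicate 3, with adjusted p up to 0.114. The E2 effect on Thbd was smaller in epithelium than in stroma (-1.50 ± 0.30, adjusted p = 0.0482), Thbd there measuring 10.37, 10.44 and 9.83 in E2 epithelial and 10.33, 9.55 and 10.18 in vehicle epithelial arrays. The call for this difference was lost without any 1 of the 6 stromal arrays, vehicle epithelial replicate 1 or E2 epithelial replicate 1 or 2 (adjusted p from 0.0801 to 0.136). Thbd, S1pr1 and Eng are best known in endothelial cells. The mean of 8 endothelial markers was 7.56 to 7.57 in E2 stromal and 7.50 to 7.79 in vehicle stromal arrays. Single markers moved both ways there, 4 measuring higher and 4 lower with E2, and 1 passed, downward. In epithelium the mean was 7.42 to 7.62 with E2 and 7.56 to 7.60 with vehicle, and 1 of the 8 passed, upward. The part of these cells in the changes of the target genes was not tested.

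**Figure D5:**
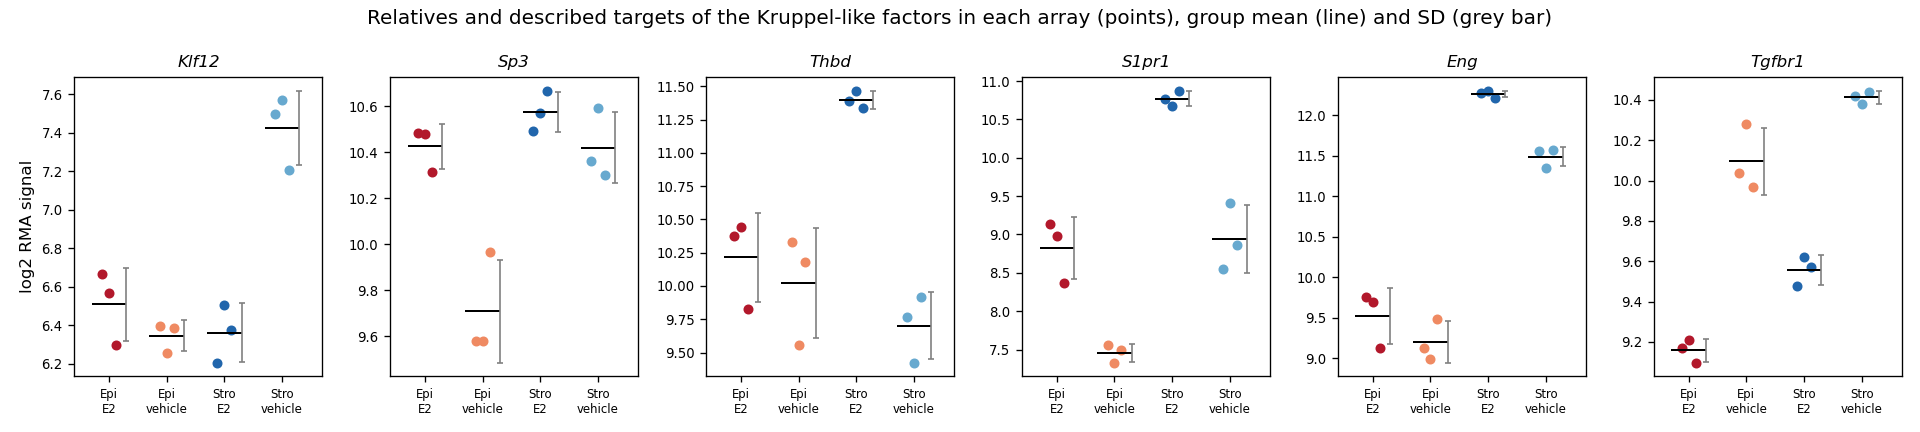
Log2 RMA signal (vertical axis, own scale in each panel) of Klf12, Sp3 and the described target genes Thbd, S1pr1, Eng and Tgfbr1 in E2 epithelial, vehicle epithelial, E2 stromal and vehicle stromal arrays. Points are arrays, black lines group means and grey bars 1 SD with n = 3. Klf12 is highest in vehicle stroma, though only near the array median there. Thbd is highest in E2 stroma, and Tgfbr1 is lower with E2 in both layers.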

How the data were processed

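The deposited values were log2 signals of 35556 probe sets on 12 Affymetrix Mouse Gene 1.0 ST arrays, made by the authors with RMA per the submitters' processing notes, with version and settings not given in the sources used here. They were used as deposited. Gene symbols came from the platform annotation, with 23410 probe sets having a symbol and 21789 a single one.

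Differences were fitted with limma 3.58.1 in R 4.3.3 (lmFit and eBayes) on the 12 arrays in 4 groups, with 8 residual degrees of freedom and no filter. Each comparison had its own Benjamini-Hochberg adjustment over 23410 probe sets, and an adjusted p under 0.05 passed. Where a gene had several probe sets the brightest was taken. The procedure was tested on simulated data.

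The members and lists were chosen with earlier results of these data known. Named were all members, up to 4 passing genes of a list per comparison, and the 3 nearest patterns of each member that changed with E2. Probe sets outside the lists are not described here.

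Replicate numbers came from the titles. Whether same-numbered arrays share a culture is not in the labels, and the reported fit did not pair them. Residuals of same-numbered arrays correlated at 0.17, 0.14 and 0.13 between epithelial and stromal vehicle arrays. A replicate block changed no call of a member between the layers under vehicle. The other pairs ranged from -0.42 to 0.27. Promoters came from RefSeq (GRCm38.p6).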

Additional observations from a re-analysis of the deposited data

Results flagged for a closer look

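The effect of E2 differed between the layers in 2 genes of the related lists, by limma's test of that difference. For Klf12 the epithelial minus the stromal effect was 1.23 (adjusted p = 0.0108), with a fall in stroma and a difference of 0.16 in epithelium that did not pass. For Thbd it was -1.50 (adjusted p = 0.0482), with a rise in stroma and a difference of 0.19 in epithelium that did not pass. The Thbd value missed the threshold in 14 of 22 alternatives, among them the replicate block (adjusted p = 0.0655), and in 9 of the 12 fits that left out an array (without any stromal array, vehicle epithelial replicate 1 or E2 epithelial replicate 1 or 2), while Klf12 kept its call in all of its 21 alternatives but the stricter threshold, none being possible with the filter on low values, which removes it.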

How the results depend on the processing

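The number of members past the threshold was 1 in epithelium with E2, 2 in stroma with E2, 0 for the difference between layers, 3 between layers under E2 and 4 under vehicle. The epithelial count was 2 with array weights and 0 at an adjusted p under 0.01, on the epithelial arrays alone, with E2 replicates 1 and 2 averaged and with either marker mean as a covariate. The stromal count was 0 over all probe sets of the table and at an adjusted p under 0.01, and 1 after quantile normalization (Klf4 alone), after median centring (Klf10 alone), with the E2 epithelial pair averaged and with the epithelial markers as a covariate. Array weights gave 3 for the difference between layers and 5 under E2, where the E2 arrays alone also gave 5, and under vehicle the stricter threshold gave 2. Leaving out 1 array gave 0 to 2, 0 to 2, 0 to 1, 2 to 5 and 2 to 4. The averaged pair and the covariates were chosen after seeing the data. The replicate block gave 1, 2, 0, 4 and 4, the added member under E2 being Klf6 (adjusted p = 0.0268), and quantile normalization brought Klf3 past the threshold under vehicle (0.31 higher in epithelium, adjusted p = 0.00924). Of the 10 calls of a member none changed sign. Klf7 in both layer comparisons, Klf4 between layers under E2 and Klf9 between layers under vehicle passed under every alternative run.

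Values of members that had not passed changed sign in 64 of 939 alternatives, and the cause was not tested. In epithelium with E2 these were Klf2 (-0.013 to 0.23 without 1 array), Klf5 (-0.69 to 0.012), Klf7 (-0.19 to 0.18), Klf10 (-0.10 to 0.13) and Klf15 (-0.081 to 0.14), Klf7 (0.23) and Klf15 (-0.087) with array weights, Klf10 with the pair averaged (0.044), with median centring (0.00046) and with leukocyte markers (0.28), and with epithelial markers Klf2 (-0.094), Klf5 (0.38), Klf6 (0.22), Klf7 (0.022) and Klf10 (0.10). In stroma they were Klf3 (-0.031 to 0.038 without 1 array), Klf5 (-0.070 to 0.14) and Klf6 (-0.15 to 0.087), Klf3 (0.032) and Klf6 (0.088) with array weights, Klf3 after quantile normalization (0.024), Klf5 with epithelial markers (-0.24), and Klf3 (0.030), Klf5 (-0.084), Klf6 (0.032) and Klf13 (0.036) with leukocyte markers. For the difference between layers they were Klf5 (-0.70 to 0.0098 without 1 array), Klf7 (-0.038 to 0.33, and -0.026 with the pair averaged) and Klf15 (-0.17 to 0.050, and 0.0059). Between layers under E2 they were Klf2 (-0.078 to 0.030 without 1 array), Klf3 (-0.074 to 0.055), Klf9 (-0.085 to 0.011), Klf13 (-0.44 to 0.21) and Klf15 (-0.16 to 0.065), Klf9 (0.0066) and Klf13 (0.11) with array weights, Klf2 (0.0027) and Klf15 (0.021) with the pair averaged, and Klf2 (0.016), Klf3 (0.11) and Klf9 (0.058) after quantile normalization. Under vehicle they were Klf10 (-0.24 to 0.028 without 1 array, and 0.095 after quantile normalization) and Klf15 (-0.062 to 0.092, -0.012 after quantile normalization and -0.0034 with median centring). Signal over background was not used here, so no limit of detection is given for dim genes such as Klf15, Klf8 and Klf12.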
